A study of Mus musculus with 2 samples.

Results

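The 10 genes described here encode transglutaminases (Tgm1, Tgm2 and F13a1), members of the coagulation cascade (F3, F7, F10 and F5) and members of the plasminogen activation system (Plau, Plaur and Serpinb2). They were taken by gene symbol, with earlier results of these data known, and all 10 were listed in both libraries, among 15623 genes listed in 1 or both. RNA was sequenced from peritoneal macrophages of wild-type C57BL/6 mice, 6 to 8 weeks old per the methods of the study, which were drawn out with 4% thioglycollate and collected by lavage 4 to 5 days later. The cells adhered for 4 h and were starved in 0.5% serum. One library came from cells left nontreated (NT) and 1 from cells given IL-4 for 6 h, the cytokine that drives M2 polarization (20 ng per mL in the methods of the study). A further label field gives bone marrow as the tissue, and the number of mice behind each library was not given in the sources used here. Expected counts, the estimate RSEM gives of the reads of a gene, summed to 11035641 for NT and 11250099 for IL-4. Below, NT and IL-4 name these 2 libraries. With 1 library per group there was no replicate check, so every interval below covers counting error only and every test compares these 2 libraries, not the conditions.

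Transglutaminases join glutamine to lysine side chains and so cross-link proteins. Factor XIII A, encoded by F13a1, does this to fibrin, and tissue transglutaminase (Tgm2) is known as an M2 marker of mouse and human macrophages. Coagulation starts when tissue factor (F3) on a cell surface binds factor VIIa (F7). The complex activates factor X (F10), and factor Xa with its cofactor factor Va (F5) makes thrombin. Urokinase (Plau) on its receptor (Plaur) turns plasminogen into plasmin, which dissolves fibrin, and plasminogen activator inhibitor-2 (Serpinb2) inhibits urokinase. Macrophages are known to make several of these proteins themselves.

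The windows around the transcription starts were read because F7 and F10 lie next to each other and were both higher upon IL-4 stimulation. Each window holds 250 bases before a transcription start and 50 after it, 5′ to 3′, from RefSeq (GRCm38.p6). In it 8 of the 10 genes had 11 windows. Tgm2 and Plau had none. The windows of F7, Tgm1, Plaur and Serpinb2 lie wholly inside the gene bounds given below. The stretch before the outer bound of those genes was therefore not searched. The first 3 windows belong to genes that differed most between the libraries besides Tgm2, and the last 2 hold a motif searched. Capitals mark matches to the STAT palindrome with 3 bases between its arms (TTCNNNGAA) or to the AP-1 site (TGANTCA).
F7 (plus strand, chr8:13025784-13026083): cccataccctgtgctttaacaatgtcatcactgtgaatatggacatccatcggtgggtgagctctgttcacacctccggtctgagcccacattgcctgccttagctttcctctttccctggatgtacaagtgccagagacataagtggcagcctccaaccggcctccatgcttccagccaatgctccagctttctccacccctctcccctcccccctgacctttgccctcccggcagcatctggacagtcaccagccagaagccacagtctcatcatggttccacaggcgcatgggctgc
F10 (plus strand, chr8:13037058-13037357): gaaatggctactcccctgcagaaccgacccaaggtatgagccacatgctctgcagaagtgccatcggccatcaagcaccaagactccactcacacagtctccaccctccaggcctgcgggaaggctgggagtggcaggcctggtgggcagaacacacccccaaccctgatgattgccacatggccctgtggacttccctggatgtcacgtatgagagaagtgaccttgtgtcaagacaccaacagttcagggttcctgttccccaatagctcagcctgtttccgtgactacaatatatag
F13a1 (minus strand, chr13:37050195-37050494): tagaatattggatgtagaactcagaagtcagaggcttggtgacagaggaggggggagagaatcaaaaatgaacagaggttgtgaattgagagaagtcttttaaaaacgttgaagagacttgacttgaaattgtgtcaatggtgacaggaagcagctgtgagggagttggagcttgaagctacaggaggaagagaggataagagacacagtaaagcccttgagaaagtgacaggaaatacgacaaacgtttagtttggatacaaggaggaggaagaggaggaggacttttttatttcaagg
Tgm1 (minus strand, chr14:55713443-55713742): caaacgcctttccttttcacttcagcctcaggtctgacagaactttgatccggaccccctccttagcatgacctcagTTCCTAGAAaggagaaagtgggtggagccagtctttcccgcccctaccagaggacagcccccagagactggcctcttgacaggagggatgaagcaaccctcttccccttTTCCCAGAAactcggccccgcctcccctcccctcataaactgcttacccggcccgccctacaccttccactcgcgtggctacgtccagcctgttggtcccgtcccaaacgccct
Plaur (plus strand, chr7:24462233-24462532): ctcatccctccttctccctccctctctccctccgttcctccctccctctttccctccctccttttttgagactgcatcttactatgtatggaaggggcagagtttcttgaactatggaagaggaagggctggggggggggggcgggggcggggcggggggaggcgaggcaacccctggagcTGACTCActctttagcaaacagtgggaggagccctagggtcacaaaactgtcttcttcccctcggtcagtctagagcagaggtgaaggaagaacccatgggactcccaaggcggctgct

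On both strands, TTCNNNGAA was found in 8.3% of all 32851 promoter windows, and the form with 4 bases between the arms that Stat6 is known to favour (TTCNNNNGAA) in 6.95%. A window may hold both. No member window held the latter, and 3 windows of 2 genes, Tgm1 and Serpinb2, held the former (the windows of Serpinb2 overlap and share 1 match). The AP-1 letters were in 7.81% of all windows and in 4 of the 11 member windows. Those belong to 3 members, F3, Plaur and Serpinb2, and the windows of Serpinb2 again share 1 match. The windows of F7, F10, F13a1 and F5 held none of the 3 motifs. These are matches of letters, not measured binding, and they say nothing of sites outside the windows.

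The main result was a rise of the transcripts of factor X and Tgm2, alongside urokinase and its receptor at nearly the same level in both libraries. Each gene was compared by its log2 ratio (IL-4 relative to NT, scaled to the library totals) and an exact two-sided binomial test of the share of its reads found upon IL-4. A call needed a ratio of 0.75 or more in either direction, p of 0.05 or less and, after Benjamini-Hochberg (BH) adjustment over all genes tested, 0.5 or less. Of the 10 genes, 2 were called higher (F10 and Tgm2), when 4.07% of the 15593 genes tested were, and 1 was called lower (F13a1), when 6.28% were. At the other thresholds of the study, a fold change over 1.5 and a BH value of at most 0.05, F7 was also higher, so that 3 genes were higher and 1 was lower. The background at those thresholds was 4.84% higher and 7.74% lower. Across the 10 genes the log2 ratios had a median of -0.07, beside -0.03 over all genes tested. The group therefore did not move as a whole, and 4 of its genes had a ratio over 0 and 6 a ratio under 0.

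Levels in FPKM (fragments per kilobase of transcript, scaled to the library) spread the 10 genes into an abundant and a scarce set. In the NT library F7 (79.1 FPKM), F10 (73.9) and Plaur (70.8) led, each interval overlapping that of the next. Tgm2 (42.1) and Plau (12.7) followed, both apart from their neighbours by counting error. The other 5 genes, from Tgm1 (2.55) down to F3 (0.82), formed a chain of overlapping intervals. In the IL-4 library the order was F10 (239.8 FPKM), F7 (127), Tgm2 (76.3), Plaur (64.6) and Plau (12.6), with no overlap between neighbours in this list. By FPKM, F10 moved from rank 887 of 14842 listed genes to rank 304 of 14717, and Tgm2 from rank 1654 to rank 948. The summed level of the 10 genes was 287 FPKM in NT and 528 FPKM upon IL-4. F10 made up 29.7% of their counts in the former and 49.3% in the latter.

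**Figure D1:**
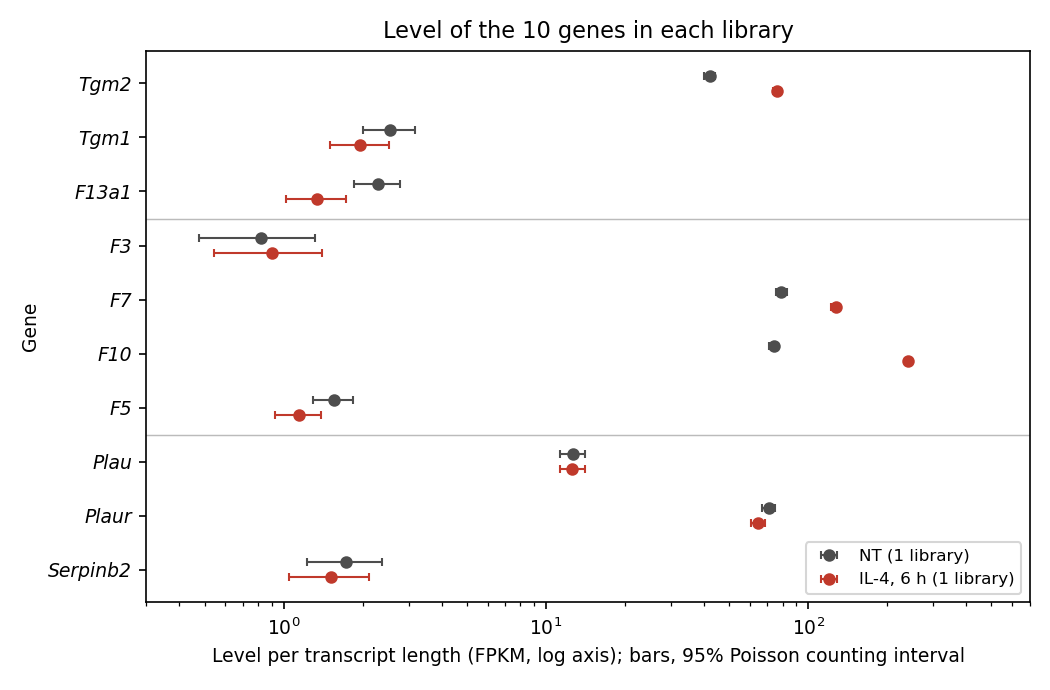
Level of each of the 10 genes in the NT library (grey) and the IL-4 library (red), in FPKM on a log axis, with 95% Poisson counting intervals. F10, F7 and Tgm2 sit to the right in the IL-4 library, and the points of Plau coincide at 12.7 and 12.6 FPKM.

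Among the transglutaminases, Tgm2 was called higher, F13a1 was called lower by a ratio close to the threshold, and Tgm1 was not called. Tgm2 (NCBI gene 21817, chromosome 2, 158116405 to 158146392, GRCm38) had 42.1 FPKM in NT and 76.3 FPKM upon IL-4, so its level was higher upon IL-4 stimulation. Its fold change was 1.81, with a 95% interval from 1.71 to 1.92, and the exact test gave a BH value of 7.95e-87. The call of Tgm2 was lost when a biological coefficient of variation (the spread between replicates, which 1 library per group cannot give) of 0.2 or 0.4 was assumed, or when a log2 ratio of 1 was required. F13a1 (NCBI gene 74145, chromosome 13, 36867178 to 37050244) was a scarce transcript, with 99 expected counts in NT and 59 upon IL-4. Its log2 ratio was -0.77, a level 1.7-fold lower, with an interval from -1.26 to -0.29 and a BH value of 0.00498. The ratio lay just past the threshold, and the call was lost in 8 of 12 alternatives. Among these were TMM scaling (-0.73) and subtraction of the median ratio of genes of similar length (-0.69). Tgm1 (NCBI gene 21816, chromosome 14, 55700009 to 55713921), the transglutaminase known for cross-linking the envelope of skin cells, had 78 and 61 counts in the NT and IL-4 libraries. Its log2 ratio of -0.38 was not called, and its interval ran from -0.89 to 0.12. The ratio of Tgm2 exceeded that of F13a1 by 1.63 on the log2 scale, with an interval of the difference from 1.14 to 2.13. In FPKM, Tgm2 stood 18.4-fold over F13a1 in the NT library and 56.9-fold over it in the IL-4 library.

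A list of 7 further genes held the remaining transglutaminase family and F13b, which encodes the carrier subunit of plasma factor XIII and is no transglutaminase. Of these, 3 were listed and none was called. By the same test 0 of the 3 had an unadjusted p under 0.05. Tgm4 had 75 and 70 counts, at 2.44 and 2.24 FPKM, and was the only one with at least 50 counts. Tgm3 and Epb42, the latter a red cell protein of this family without enzyme activity, had at most 10.02 counts in either library. Tgm5, Tgm6, Tgm7 and F13b were at 0 in both. For such genes, 0 counts allow up to 0.272 CPM (counts scaled to a common library size) in NT and 0.267 CPM upon IL-4.

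In the coagulation cascade F10 was called higher, F7 was higher only at the fold change of 1.5, and F3 and F5 were not called. F3 (NCBI gene 14066, chromosome 3, 121723537 to 121735052) was the scarcest of the 10 genes, with 17 counts in NT and 19 upon IL-4. Its log2 ratio of 0.13 had an interval from -0.89 to 1.17, so its counts left room for a level between 1.85-fold lower and 2.25-fold higher. F7 (NCBI gene 14068, chromosome 8, 13025506 to 13035809) had 1634 counts in NT and 2685 upon IL-4. Its level was 1.61-fold higher, with an interval from 1.51 to 1.72 and a BH value of 4.78e-52. The log2 ratio of F7, 0.69, stayed under the threshold of 0.75, which lay inside its interval of 0.60 to 0.78. With the median ratio of genes of similar length subtracted it was 0.55, which is under a fold change of 1.5 as well.

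F10 (NCBI gene 14058, chromosome 8, 13037308 to 13056676) showed the largest difference of the 10 genes. It had 2178.71 expected counts in NT and 7255.05 upon IL-4, or 73.9 and 239.8 FPKM. The IL-4 value was 3.27-fold higher on the count scale, with an interval from 3.11 to 3.43, and 3.25-fold higher in FPKM. F10 was called under every alternative run except an assumed coefficient of variation of 0.4. It was also the only member whose expected counts were not whole. RSEM is known to divide reads that match more than 1 gene. The ratio of F10 exceeded that of F7 by 1.02 on the log2 scale (interval of the difference, 0.91 to 1.13), and that of Tgm2 by 0.85 (0.74 to 0.96). In FPKM, F10 went from 0.934 of the level of F7 in the NT library to 1.88 times that level in the IL-4 library.

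F5 (NCBI gene 14067, chromosome 1, 164151835 to 164220277), the cofactor of factor Xa, had 129 counts in NT and 97 upon IL-4. Its log2 ratio of -0.44 was not called (interval -0.83 to -0.05, BH value 0.0786). F5 has by far the longest transcript of the 10 genes, at 7433 bases, and genes of similar length had a median log2 ratio of -0.48. With that median subtracted, the ratio of F5 was 0.04. F10 stood 47.7-fold over F5 in FPKM in the NT library and 210-fold over it in the IL-4 library. F5 is also known as a gene of resident large peritoneal macrophages. The 9 markers of those cells, all listed, summed to 443 counts in NT and 549 upon IL-4. Prg4 had 255 and 253 counts, and Selp (25 and 72) and Alox15 (4 and 29) were called higher. Gata6 (54 and 77 counts), Icam2 (22 and 37), Tgfb2 (33 and 41) and Cxcl13 (2 and 7) were not called. Nor were Ltbp1 (36 and 23) and Timd4 (12 and 10). The part of those cells in the F5 values was not tested.

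**Figure D2:**
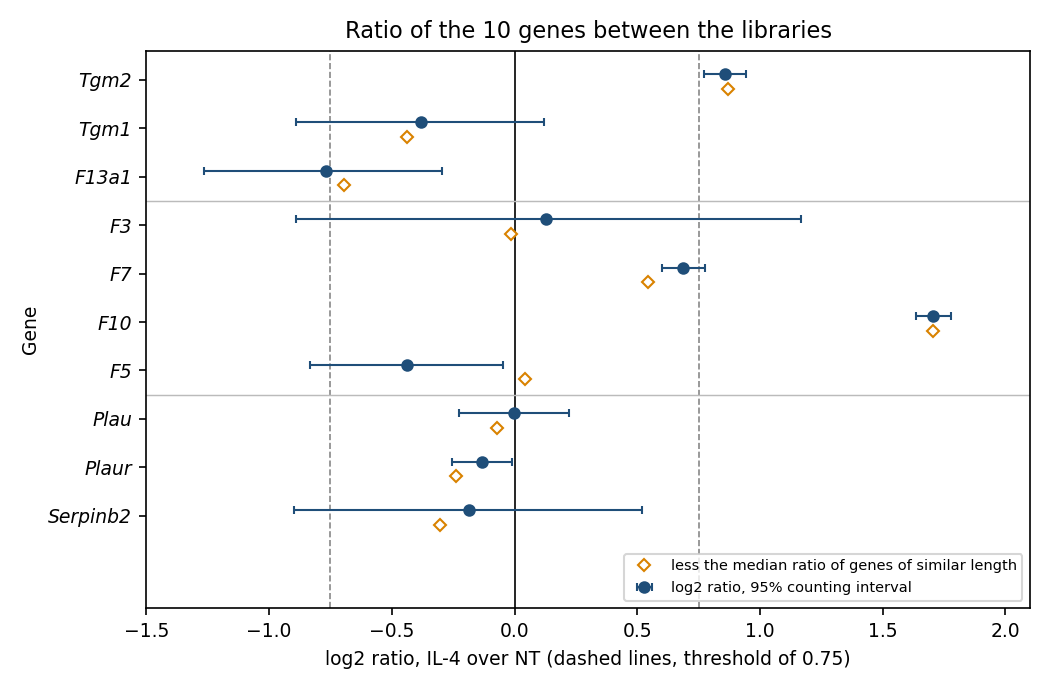
Log2 ratio of IL-4 over NT for each gene (blue points, bars are 95% counting intervals) and after subtraction of the length trend (open diamonds). Dashed lines mark the threshold of 0.75. F10 at 1.71 and Tgm2 at 0.86 lie past it, F7 at 0.69 is just inside, and F13a1 at -0.77 moves inside it with length subtracted.

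The plasminogen activation genes showed no called difference in this comparison. Plau (NCBI gene 18792, chromosome 14, 20836662 to 20843388) had 328 counts in NT and 334 upon IL-4. Its log2 ratio was 0.00 to 2 decimals with an interval from -0.23 to 0.22, so a difference past the threshold lay outside the counting error. Plaur (NCBI gene 18793, chromosome 7, 24460937 to 24475970) had 1171 counts in NT and 1089 upon IL-4. Its log2 ratio was -0.13, with an interval from -0.25 to -0.01 and a BH value of 0.0868. The interval of Plaur excluded 0 but lay far within the threshold. In FPKM the receptor stood 5.6-fold over its ligand in the NT library and 5.11-fold in the IL-4 library. Serpinb2 (NCBI gene 18788, chromosome 1, 107500892 to 107525600) was scarce, with 38 counts in NT and 34 upon IL-4. Its log2 ratio of -0.19 had an interval from -0.90 to 0.52, which spanned the lower threshold.

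Against other abundant transcripts, the rises of F10 and Tgm2 were large but not extreme. Of the 10 genes, 4 had at least 1000 counts in the library with more, as did 2309 genes in all. Of these 2309 genes, 6.11% were called higher, a background above that of all genes. By their ratio, F10 ranked 34 from the highest, Tgm2 110, F7 159 and Plaur 1519.

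**Figure D3:**
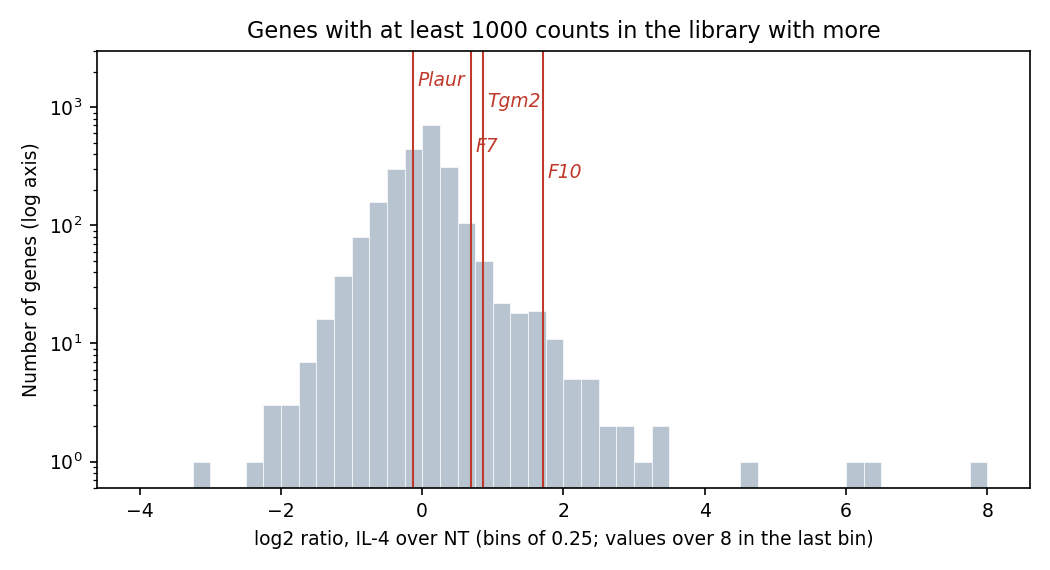
Number of genes (log axis) by log2 ratio of IL-4 over NT, for the 2309 genes with at least 1000 counts in the library with more. Red lines mark Plaur at -0.13, F7 at 0.69, Tgm2 at 0.86 and F10 at 1.71, the last within the right tail.

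F7 and F10 lie head to tail on the plus strand of chromosome 8, with 1498 bases between them in RefSeq. Their neighbours were examined after the values of these 2 genes were known. Within 250 kb on either side, 12 genes were tested, F7 and F10 included. Of these, 3 were called higher, F10 among them, and 1 lower, beside 4.07% and 6.28% of all genes tested. Mcf2l, which encodes a guanine nucleotide exchange factor and lies just before F7, had 73 counts in NT and 852 upon IL-4. It was 11.4-fold higher, with a log2 interval from 3.17 to 3.88. Pcid2, further along past F10, was called higher too, at a log2 ratio of 0.91 (0.69 to 1.14). Proz, which follows F10 and overlaps the bounds of Pcid2, encodes protein Z, a vitamin K-dependent cofactor. Whether reads were counted by strand was not given in the sources used here, so reads of the overlap may be shared. Proz had 23 and 27 counts and a log2 ratio of 0.20 (-0.65 to 1.07). Lamp1, a lysosomal membrane protein gene of this stretch, had a log2 ratio of 0.02. The gene called lower was Gm15350, with 29 and 13 counts. The rise was thus not shared by all genes of the stretch.

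**Figure D4:**
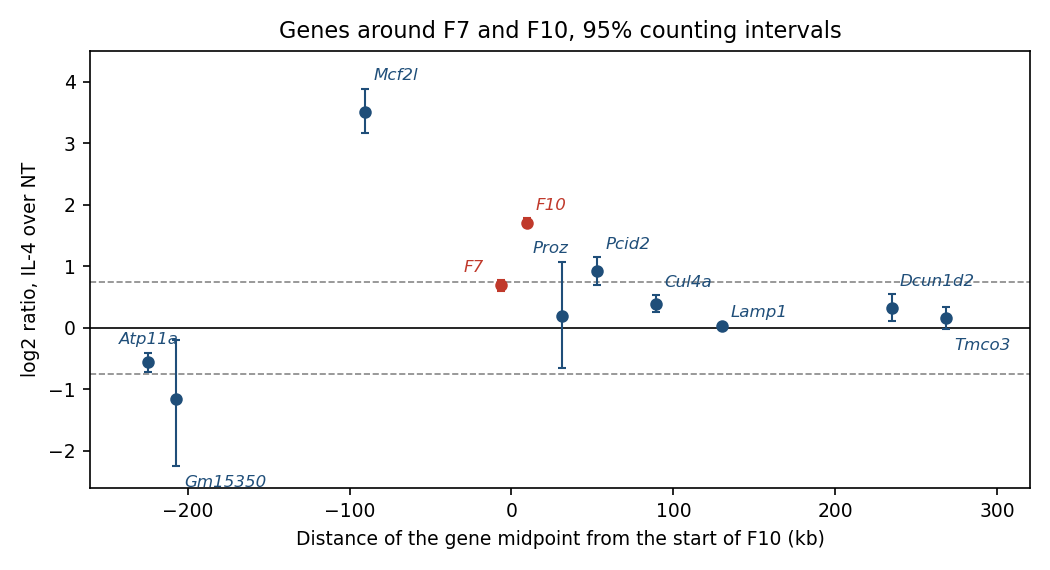
Log2 ratio of IL-4 over NT, with 95% counting intervals, of the genes around F7 and F10 (red) that had at least 20 counts in a library, by the distance of the gene midpoint from the start of F10 in kb. Mcf2l at 3.51 is the highest point, and Lamp1 lies at 0.02.

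Another 64 genes of these pathways were examined in 7 lists, of which 43 were listed in 1 or both libraries and 21 were at 0 in both. At the main thresholds 1 of the 43 was called higher and 4 were called lower, beside 4.07% and 6.28% of all genes tested, and their median log2 ratio was -0.02. These counts are near the background, so the calls below are given gene by gene and not as a change of the pathways. Among 8 natural anticoagulants listed of 12, Thbd and Procr were both called lower. Thbd encodes thrombomodulin, the surface receptor that turns thrombin toward the activation of protein C. It had 465 counts in NT and 232 upon IL-4, 2.04-fold lower, with a log2 interval from -1.26 to -0.80. Procr encodes the receptor that presents protein C to that complex. It had 401 and 211 counts, 1.94-fold lower (log2 interval -1.20 to -0.71). Thbd and Procr are also known in endothelial cells. Of 5 endothelial markers, Tek and Emcn were at 0 in both libraries and Kdr had 171 counts in NT and 66 upon IL-4, a called difference. Cdh5 had 5 counts in both and Pecam1 had 6 and 15, and neither was called. The part of endothelial cells in these values was not tested.

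Pros1, which encodes protein S, the cofactor of activated protein C, had 471 counts in NT and 751 upon IL-4. Its log2 ratio was 0.64 (0.48 to 0.81), under 0.75 but past a fold change of 1.5. Tfpi, the inhibitor of the tissue factor complex, had a log2 ratio of -0.19 (-0.44 to 0.07) and was not called. Serping1, the C1 inhibitor gene, had a log2 ratio of -0.10 (-0.52 to 0.32). Among the other coagulation factors, 5 of 12 were listed. Vwf, which encodes von Willebrand factor, had 1209 counts in NT and 1005 upon IL-4. Its log2 ratio of -0.29 (-0.42 to -0.17) was not called. With the median ratio of genes of similar length subtracted, the ratio of Vwf was 0.13. The part of endothelial cells in the Vwf values was not tested. F9 was called lower on 12 and 2 counts. Fibrinogen genes (Fga, Fgb and Fgg), F11, F12, Kng1 and Kng2 were at 0 in both libraries, and F2, F8 and Klkb1 had at most 5 counts.

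The 3 vitamin K cycle genes, which serve the carboxylation of factors VII and X, were listed and not called. By the same test 0 of the 3 had an unadjusted p under 0.05. Vkorc1 had a log2 ratio of 0.13, Vkorc1l1 one of -0.05 and Ggcx one of -0.10. Of the 4 protease-activated receptor genes, F2r had 18.03 and 20.27 counts and the others at most 3, and none was called (0 at an unadjusted p under 0.05).

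In the plasminogen list, 10 of 13 genes were listed and 1 was called. Plg, the substrate of urokinase, was at 0 in both libraries, as were Cpb2 and A2m. Plat, the tissue activator, had 18 and 15 counts. Transcripts of some genes whose products can act as plasminogen receptors were abundant, which does not measure protein at the cell surface. Anxa2 had 466 and 548 FPKM, S100a10 had 234 and 251 FPKM, and Eno1 had 246 and 285 FPKM, none of them called. Plgrkt, a further plasminogen receptor gene, had 28.8 and 32.6 FPKM and was not called. Lrp1, an endocytic receptor that also clears complexes of urokinase and inhibitor, had 21671 counts in NT and 9495 upon IL-4, 2.33-fold lower. Its transcript is very long, and with the median ratio of genes of similar length subtracted the log2 ratio went from -1.22 to -0.62, inside the threshold.

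Among the other clade B serpins, relatives of Serpinb2, 10 of 13 were listed. Serpinb1a was called higher, from 45.18 to 88.61 counts, a log2 ratio of 0.94 (0.42 to 1.51). Its counts were not whole and it has close paralogs, so its separate value is uncertain. Serpinb6a, the most abundant, had 254 and 224 FPKM and was not called. Serpinb8 and Serpinb9 had log2 ratios of 0.25 and 0.41 and were not called.

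**Figure D5:**
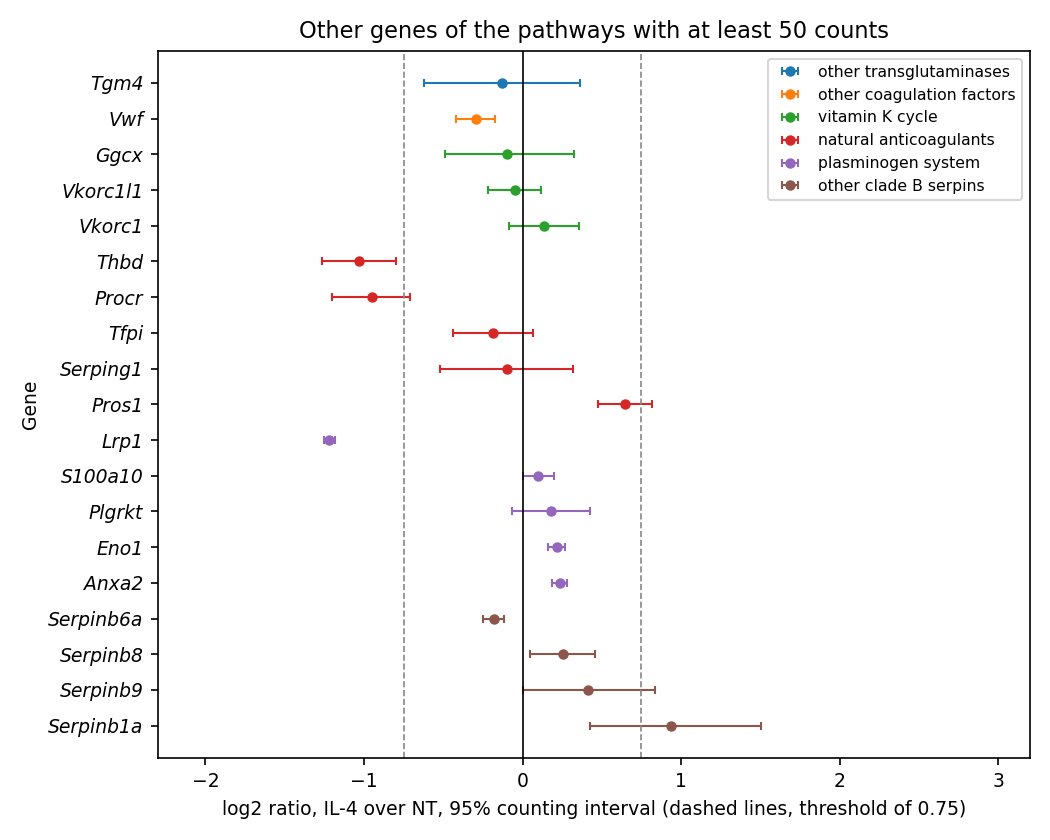
Log2 ratio of IL-4 over NT, with 95% counting intervals, of the 19 other pathway genes that had at least 50 counts in the library with more, coloured by list. Thbd, Procr and Lrp1 lie past the lower threshold of 0.75 in size, and Serpinb1a lies past the upper one.

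The labelled cell type was checked against its markers. All 8 macrophage markers were listed in both libraries, led by Lyz2 and Cd68, and Csf1r was called higher and Cd14 lower. The 9 mesothelial and fibroblast markers summed to 2414 counts in NT and 2021 upon IL-4, with Col1a1 the highest in the NT library. Msln, a mesothelial gene, was called lower on 12 and 2 counts, and Pdgfra, with 286 and 187 counts, was lower only at the fold change of 1.5. Such cells are known to make F3 and Plau, and their part in those values was not tested. Platelet markers were at or near 0 (Gp9, Gp1bb and Ppbp at 0, Itga2b at 5 and 3 counts, Gp1ba at 6 and 0 and called lower, Treml1 at 6 and 1), apart from Pf4 at 133 and 135 counts. F5 and F13a1, both known in platelets, had 129 and 99 counts in NT. The sums in NT and IL-4 were 120.1 and 104.9 counts for 8 neutrophil markers (Cxcr2 the highest, Ly6g and S100a9 at 0) and 78.01 and 53.26 for 4 monocyte markers (Cx3cr1 the highest, and called lower, and Ly6c2 called higher on 0 and 8 counts). They were 60 and 37 for 4 mast cell markers (Tpsb2 the highest), 53 and 28 for 4 eosinophil markers (Siglecf the highest, and called lower) and 83 and 66 for 6 B and T cell markers (Cd79a the highest). The part of these cells in the values above was not tested. Of 5 adipocyte markers, Adipoq alone was listed, with 139 counts in the IL-4 library only. In bulk RNA, fewer cells of a type and less RNA per cell cannot be told apart.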

How the data were processed

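RNA from 1 NT and 1 IL-4 library of peritoneal macrophages was analysed, grouped by sample title. Per the methods of the study and the processing notes of the submitters, reads were mapped to GRCm38/mm10 with Bowtie and quantified with RSEM. The authors deposited an expected count for each gene (the RSEM estimate of its reads, not scaled for depth), an FPKM value (scaled by the authors for length and assigned fragments) and a weighted transcript length. A gene missing from a table was set to 0. Symbols and coordinates came from a RefSeq gene table for GRCm38 that matched 15587 of 15623 gene numbers.

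The log2 ratio used expected counts scaled to the library totals, with 0.5 added. Counts rounded to whole numbers were tested across 15593 genes by an exact two-sided binomial test of the IL-4 share of reads, with BH adjustment. Intervals of ratios are 95% Clopper-Pearson intervals, those of FPKM are exact Poisson intervals and those of differences between ratios come from the conditional odds ratio. Reads were treated as independent, and PCR copies would make the intervals too narrow. A count of 0 was taken to allow 3 counts. For the length trend, the 8463 genes with at least 200 reads were sorted by length and the 200 closest to a given gene gave the median subtracted. The alternatives used edgeR 4.0.16 (TMM scaling, and its exact test with an assumed coefficient of variation) and DESeq2 1.42.0 (median-of-ratios scaling). The procedure was tested on simulated counts that held counting error only. That test cannot show how calls hold under the spread between replicates. Tests were run with scipy 1.17.1 and numpy 2.4.6 in Python 3.11.15, edgeR and DESeq2 in R 4.3.3, and plots were drawn with matplotlib 3.10.9.

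The members and lists were chosen with earlier results of these data known. All 10 members are named. Of each pathway list, called genes and the 3 of highest mean FPKM among the others are named, as are the markers with the most counts, and other genes were named after their values were seen. Protein sequences were not used here. Some genes of the lists are not reported here one by one.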

Additional observations from a re-analysis of the deposited data

How the results depend on the processing

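No paired analysis was possible because there was a single library on each side, and neither could be left out. Of 120 values of the 10 members over 12 alternatives, 103 kept their direction and side of the threshold, 12 lost a call, 1 gained one and 4 turned in sign. The last were Plau with TMM (0.035) and median-of-ratios scaling (0.026), and F3 (-0.016) and F5 (0.044) with the length trend subtracted, none of them called. The other scalings moved every ratio by at most 0.037. Members called higher went from 2 to 1 when a coefficient of variation of 0.2 was assumed or with a log2 ratio of at least 1 and BH of at most 0.05, and to 0 with 0.4. Members called lower went from 1 to 0 with TMM, median-of-ratios, FPKM plus 0.1 or 1, the coefficients 0.2 and 0.4, a log2 ratio of at least 1, and the length trend, all through F13a1. Pathway genes called higher went from 1 to 0 with FPKM plus 1, 0.2, 0.4 and a log2 ratio of at least 1, and to 2 at a fold change over 1.5. Those called lower went from 4 to 2 with 0.2 and to 0 with 0.4. They went to 3 with FPKM plus 1, a log2 ratio of at least 1, and the length trend. The cause was not tested where neither the threshold nor the assumed variation sets it. The median of the members ran from -0.09 to -0.03. Counting intervals of F3, Serpinb2, Tgm1, F5, F7 and F13a1 span the threshold, so depth limits those calls.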
